A study of Mus musculus with 8 samples.

Results

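A set of 10 genes of secreted immune factors and their partners were followed in mouse CT26 cells, and they are described here across 4 unedited and 4 Tead1/4 knockout libraries. They are 9 ligand or antagonist genes, Il15, Il18, Il33, Il1rn, Csf1, Il34, Il6, Il11 and Lif, and 1 receptor gene, Il15ra. Each was found by its symbol on exactly 1 row, so they make up 10 of the 26642 rows of the count table. CT26 is a mouse colon carcinoma line, grown here in RPMI medium with serum and antibiotics, and no further treatment is given for either group. The first group is unedited (WT), and the second is labelled as a knockout of Tead1 and Tead4, whose proteins carry YAP and TAZ to DNA. The labels do not say whether the knockout cells are a single clone or a pool, how the genes were edited, or whether replicates were separate cultures. The p-values therefore rest on differences among libraries that may be technical.

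Cytokines of this kind are secreted by a tumour or stromal cell and read mostly by other cells. IL-15 is presented on the IL-15 receptor alpha chain to natural killer and T cells, which read it through IL-2 receptor beta and the common gamma chain. IL-18 and IL-33 belong to the IL-1 family, and the IL-1 receptor antagonist encoded by Il1rn blocks IL-1. CSF1 and IL-34 are the ligands of the CSF1 receptor, on which macrophages depend for survival. IL-6, IL-11 and LIF each bind a receptor chain of their own and signal through the shared chain gp130 to JAK kinases and STAT3.

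Total counts per library lay between 29679405 and 32774905, at which 3 counts in a library correspond to 0.0873 to 0.110 CPM. CPM are counts scaled to a common library size with TMM factors, and means carry their SD with n = 4 per group. A log2 ratio is the log2 fold change of knockout over WT fitted by edgeR, with its standard error (SE). Tead1 was at 142 to 319 CPM in WT and at 51.2 to 77.8 CPM in knockout libraries. Tead4 was at 36.7 to 63.2 and 23.3 to 37.0 CPM, and its ranges overlapped. Its call (log2 fold change -0.71, edgeR adjusted p = 0.0261) was lost without WT replicate 1 or 4 or knockout replicate 2 or 3, at adjusted p from 0.0601 to 0.0800, and under upper-quartile or plain library-size scaling (0.0692 and 0.0800). It was also lost with the close WT pairs, replicates 1 and 4 and replicates 2 and 3, each summed (0.0653). The libraries were uneven within groups: the 13 transcripts of the mitochondrial genome summed to 1183 CPM in knockout replicate 3 and to 43142 to 48937 CPM in the other knockout libraries. They summed to 40442 and 31815 CPM in WT replicates 2 and 3, against 11672 and 10104 CPM in WT replicates 1 and 4. Rows with any count numbered 14345 in knockout replicate 1, 17759 to 17948 in knockout replicates 2 to 4 and 14566 to 15430 in WT. The part of these differences in the results below was not tested.

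Markers of the labelled tissue and of other cell types were counted as well, and their part in the results was not tested. Of the 14 colon epithelium markers, Epcam and Car1 had a count of 0 in all libraries and Cdh1 had 0 in WT and 10 counts over the knockout libraries, while Krt18 rose from 38.5 ± 2.93 to 76.3 ± 8.65 CPM (edgeR adjusted p = 0.00107). Krt20 was at 34.6 ± 19.2 and 47.4 ± 9.12 CPM and Krt8 at 0.328 ± 0.230 and 0.896 ± 0.0975 CPM, and neither passed (edgeR adjusted p = 0.289 and 0.121). Krt8 reached the filter only with its knockout counts, as it had 0 counts in WT replicate 1. Every knockout value of Krt8 lay above every WT value, an order found for 21.1% of all rows tested. The colon list summed to 57.0 to 107 CPM in WT and 106 to 143 CPM in knockout libraries. Fibroblast markers were present in both groups, summing to 1409 to 2127 CPM in WT and 1746 to 2341 CPM in knockout libraries, with Col1a2 at 1418 CPM on average in WT. Of these 10 markers 6 were tested and 4 called higher, beside 20.9% of all rows tested. Of the 4, Dcn was tested only because of its knockout counts (4 counts over WT, 1047 over knockout libraries). The 20 leukocyte markers summed to 21.2 to 38.8 CPM in WT and to 58.2 to 83.4 CPM in knockout libraries. Cd14, Cd68 and Lyz2 made up nearly all of that sum and were all called higher, beside 20.9% of all rows tested. Lyz2 was tested only because of its knockout counts (29 counts over WT, 312 over knockout libraries). The other 17 were too low to test. Of these, Adgre1, Cd3e, Cd8a and Tyrobp had a count of 0 in every library, and Ptprc (CD45) had 3 counts over WT and 2 over the knockout libraries. Others had more counts in the knockout libraries: Itgax had 2 over WT and 31 over knockout, Ly6g 0 and 24, S100a8 0 and 18, Csf1r and Cd3g 0 and 12 each, Cd4 3 and 14 and Fcgr1 0 and 9. The 7 endothelial markers summed to 0 to 0.438 CPM in WT and 1.30 to 11.1 CPM in knockout libraries. Vwf alone was tested, through its knockout counts only (14 counts over WT, 740 over knockout), Tek had 0 and 24 counts and Cdh5 0 and 5, and Kdr, Emcn and Cldn5 were at 0 in all libraries.

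Of the 10 genes, 6 passed the filter on low counts. Il15, Il18, Il34, Il11 and Lif rose in the knockout libraries, and Csf1 did not pass the test. Il1rn and Il6 had too few counts to be tested, and Il15ra and Il33 had a count of 0 in all 8 libraries, as did 5761 of the 22036 annotated rows. The fit covered 13265 rows, of which 41.6% were called at an edgeR adjusted p under 0.05, with 20.9% called higher and 20.6% lower. For the 5 genes that rose, each of the 4 knockout values exceeded each of the 4 WT values, a pattern found for 21.1% of all rows tested, and the opposite order was found for 19.6%. Il18 was tested only because of its counts in the knockout libraries and so had to differ. The 4 genes that rose from a measurable WT level had log2 fold changes from 1.97 to 2.32, and 5.31% to 6.96% of all rows had a larger one. Bulk counts cannot tell more mRNA per cell from more cells that make it.

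**Figure D1:**
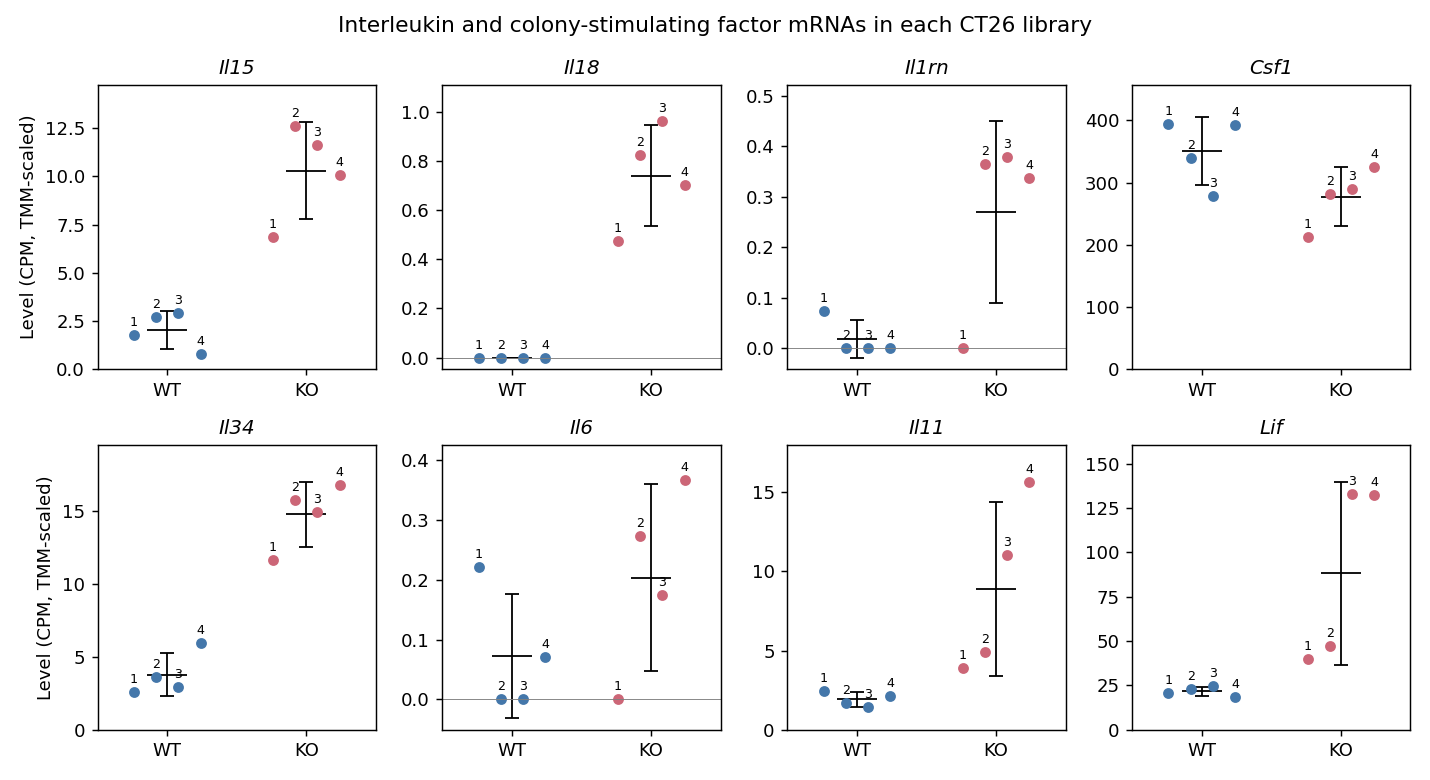
Level of 8 of the 10 genes in each library (CPM, linear axes that differ between panels); numbers at the points are replicates, bars are the mean and SD of 4 libraries, and the 2 genes at 0 throughout are left out. Knockout points lie above all WT points for Il15, Il18, Il34, Il11 and Lif, and the ranges of Csf1, Il6 and Il1rn overlap.

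**Figure D2:**
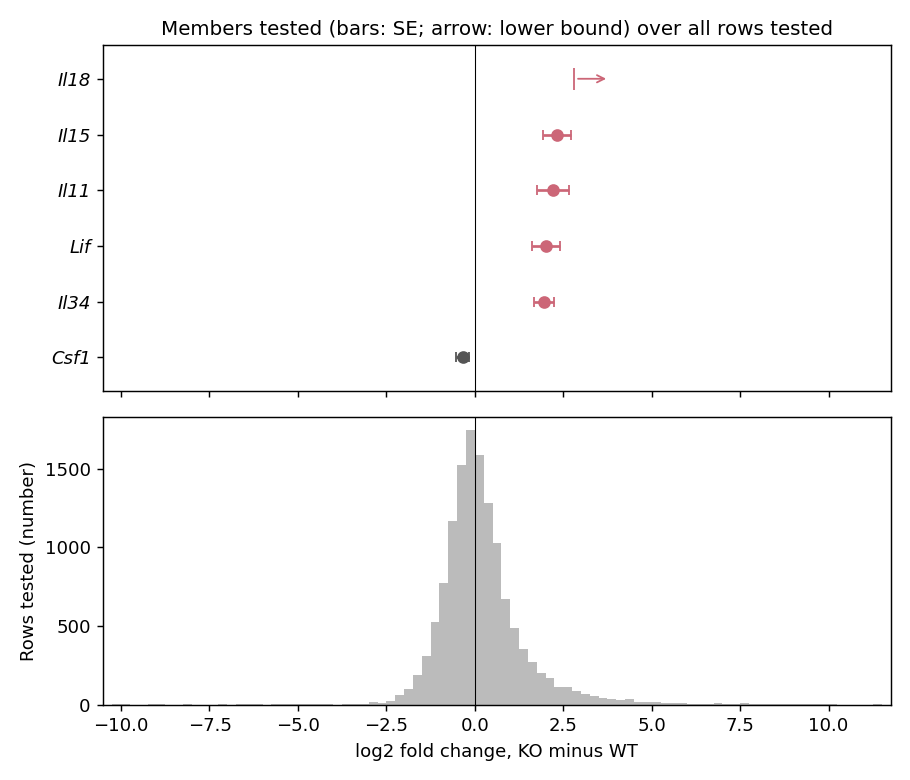
Log2 fold change (knockout minus WT) of the 6 genes tested, with SE bars (top), above the number of rows at each log2 fold change among all 13265 tested (bottom). Red marks genes called higher, grey marks Csf1, and the arrow for Il18 starts at its lower bound because WT was at 0.

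Il15 was about 5 times as abundant in the knockout libraries. Its values were 1.80, 2.73, 2.93 and 0.781 CPM in WT replicates 1 to 4 and 6.86, 12.6, 11.6 and 10.1 CPM in knockout replicates 1 to 4. The groups did not overlap, WT replicate 4 was the lowest of all and knockout replicate 1 the lowest of its group. The means were 2.06 ± 0.985 and 10.3 ± 2.52 CPM (SD, n = 4), a 4.98-fold difference (log2 ratio 2.32 ± 0.40 SE, edgeR adjusted p = 0.00245). The gene lies on GRCm38 chromosome 8, 82331632 to 82403222, minus strand (ENSMUSG00000031712). The interferon response list, 33 genes of which 31 rose (20.9% of all rows did), was likewise lowest in WT replicates 4 and 1. Of the 31, Mx1, Mx2 and Psmb9 reached the filter only with their knockout counts. Centred on the 8 libraries, the average log2 level of the list was -1.86, -0.21, -0.88 and -2.30 in WT replicates 1 to 4. The knockout libraries lay at 1.14 to 1.48. Within WT the mitochondrial transcripts were also lowest in replicates 4 and 1. Whether the level of Il15 depends on either was not tested.

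The chains through which IL-15 is presented and read did not move together. Il15ra (chromosome 2, 11705290 to 11734317, plus strand) was at 0 in every library, which at this depth allows up to 0.110 CPM in WT replicate 1, the library with the highest limit. Il2rb, the IL-2 receptor beta chain, had 7 counts in WT, all in replicate 4, and stood at 1.01, 1.04, 1.63 and 1.53 CPM in knockout replicates 1 to 4. It was tested only because of its counts in the knockout libraries and so had to differ. Its fitted log2 fold change of 4.31 is loosely fixed and was 3.90 to 8.34 with 1 library left out, the top value without WT replicate 4. Il2rg, the common gamma chain, fell from 4.49 ± 1.83 to 1.62 ± 0.313 CPM (log2 ratio -1.47 ± 0.35 SE, edgeR adjusted p = 0.00972). WT replicates 1 and 4 were both at 6.07 CPM and WT replicates 2 and 3 at 3.004 and 2.80 CPM, all above the highest knockout library at 2.04 CPM. Il2ra, the alpha chain of the IL-2 receptor, had 2 counts in all.

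Among the IL-1 family genes, Il18 was seen in the knockout libraries and had a count of 0 in each WT library. It stood at 0.474, 0.822, 0.960 and 0.703 CPM in knockout replicates 1 to 4, from 15, 27, 33 and 23 counts. Against a limit of 3 counts per WT library this is at least 7.04-fold higher. IL-18 is made as a precursor that caspase-1 cuts. The gene lies on chromosome 9, 50554827 to 50581840, plus strand (ENSMUSG00000039217). On the receptor side, Il18rap, the accessory chain, was at 88.1 ± 7.07 CPM in WT and 93.0 ± 3.33 CPM in knockout libraries (log2 ratio 0.08 ± 0.12 SE, edgeR adjusted p = 0.621). Il18r1, the ligand-binding chain, had only 2 to 17 counts per library and was not tested. Il18bp, a secreted protein that captures IL-18, was at 5.27 ± 0.908 and 5.64 ± 1.20 CPM (edgeR adjusted p = 0.761).

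Il33 (chromosome 19, 29925114 to 29960718, plus strand), an alarmin held in the nucleus, had no count in either group. The gene for its receptor ST2, Il1rl1, was abundant in both groups. Its values were 60.1, 36.9, 36.8 and 33.6 CPM in WT and 61.5, 58.7, 56.7 and 64.4 CPM in knockout replicates 1 to 4. WT replicate 1 lay within the knockout range, and the difference missed the threshold (log2 ratio 0.53 ± 0.19 SE, edgeR adjusted p = 0.0508). Il1rap, the co-receptor of ST2 and of the IL-1 receptor, had a log2 fold change of -0.45 (edgeR adjusted p = 0.101). Sigirr, an inhibitory receptor of the same family, rose from 41.3 ± 23.3 to 91.1 ± 9.85 CPM (log2 ratio 1.14 ± 0.36 SE, edgeR adjusted p = 0.0285). WT replicates 1 and 4 were at 22.9 and 20.9 CPM and WT replicates 2 and 3 at 52.9 and 68.4 CPM, and the call was lost without WT replicate 1 or 4 or knockout replicate 2, 3 or 4 (adjusted p from 0.0557 to 0.0688) and with the close WT pairs summed (0.0693).

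Il1rn (chromosome 2, 24336853 to 24351494, plus strand) had 2, 0, 0 and 0 counts in WT replicates 1 to 4 and 0, 12, 13 and 11 in knockout replicates 1 to 4. Knockout replicate 1 thus did not resemble the other 3. That library also had counts in fewer rows of the whole table, 14345 against 17759 to 17948 in knockout replicates 2 to 4. Il6 and Csf1r likewise had 0 counts in it and some in knockout replicates 2 to 4. The part of this library difference in the Il1rn counts was not tested. Over all libraries the ratio of knockout to WT was 15.6, with a 95% exact binomial (Clopper-Pearson) interval of 4.03 to 134. This interval covers counting error only, and that only if each count is independent. The gene did not pass the filter with all 8 libraries, and without a filter it did not pass the test (edgeR adjusted p = 0.0876). With knockout replicate 1 or any WT library left out it passed the filter through knockout replicates 2 to 4 alone and so had to differ, and nothing is read from those fits. Il1r1, the receptor it blocks, was at 59.3 ± 6.35 CPM in WT and 57.2 ± 9.36 CPM in knockout libraries (edgeR adjusted p = 0.810). Its agonists were near the limit of detection: Il1a had 0 to 11 counts per library, and Il1b had 1 count in all.

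The pair of ligands for the CSF1 receptor differed in level and in change. Csf1 was the most abundant of the 10 genes, at 394, 339, 279 and 393 CPM in WT replicates 1 to 4 and 213, 282, 289 and 326 CPM in knockout replicates 1 to 4. The groups overlapped, with knockout replicate 1 the lowest library. The means were 351 ± 54.6 and 277 ± 47.1 CPM, and the log2 fold change of -0.34 (SE 0.18) did not pass the test (edgeR adjusted p = 0.150). Scaled with upper-quartile factors or by library size alone it was -0.15 and -0.14. Il34 was at 2.61, 3.62, 2.96 and 5.93 CPM in WT and 11.6, 15.8, 14.9 and 16.8 CPM in knockout replicates 1 to 4. All knockout libraries were above WT replicate 4, the highest WT library. The means were 3.78 ± 1.49 and 14.8 ± 2.23 CPM, a 3.90-fold difference (log2 ratio 1.97 ± 0.28 SE, edgeR adjusted p = 0.00123). Csf1 lies on chromosome 3, 107741048 to 107760469, minus strand, and Il34 on chromosome 8, 110741829 to 110805924, minus strand. The 2 antisense genes, Gm15894 and Gm15895, share 4.95% of the exonic length of Il34, and the sources used here do not say whether counting used strand.

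Per kb of exon, which allows levels of different genes to be compared, Csf1 was at 66.5 ± 10.3 CPM per kb in WT and Il34 at 1.93 ± 0.761. In the knockout libraries they were at 52.5 ± 8.92 and 7.54 ± 1.14 CPM per kb, so Csf1 remained the more abundant ligand in each group. Csf1r, their receptor, had a count of 0 in WT and in knockout replicate 1 and 6, 3 and 3 counts in knockout replicates 2 to 4. Of the other reported partners of IL-34, Ptprz1 was at 0 throughout. Sdc1, a heparan sulfate proteoglycan, fell from 18.5 ± 4.02 to 9.45 ± 4.97 CPM (log2 ratio -0.97 ± 0.32 SE, edgeR adjusted p = 0.0359). Knockout replicate 1, at 16.9 CPM, lay within the WT range of 14.8 to 23.6 CPM, and the other 3 were at 6.81 to 7.18 CPM. The call for Sdc1 was lost without WT replicate 2 or 3 or knockout replicate 2, 3 or 4 (adjusted p from 0.0713 to 0.101), with the close WT pairs summed (0.114) and under upper-quartile or plain library-size scaling (0.0601 and 0.0514).

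Of the ligands that signal through gp130, Lif and Il11 rose and did so unevenly. Lif, which maintains embryonic stem cells and acts in many tissues, was at 20.5, 23.3, 24.6 and 18.7 CPM in WT replicates 1 to 4. It was at 40.2, 47.0, 133 and 132 CPM in knockout replicates 1 to 4, so that replicates 3 and 4 stood well above 1 and 2, and all of them above WT. The means were 21.8 ± 2.66 and 88.1 ± 51.5 CPM, a 4.05-fold difference (log2 ratio 2.02 ± 0.39 SE, edgeR adjusted p = 0.00416). Il11, a factor for stromal and epithelial cells, was at 2.47, 1.71, 1.42 and 2.13 CPM in WT and 3.92, 4.93, 11.1 and 15.6 CPM in knockout replicates 1 to 4. The same libraries were high, and the groups did not overlap. The means were 1.93 ± 0.462 and 8.88 ± 5.49 CPM, a 4.60-fold difference (log2 ratio 2.20 ± 0.45 SE, edgeR adjusted p = 0.00514). Leaving out each library in turn kept the log2 ratio between 1.76 and 2.24 for Lif and between 1.79 and 2.43 for Il11. Il6, the best-known member of the family, had 6, 0, 0 and 2 counts in WT and 0, 9, 6 and 12 in knockout replicates 1 to 4, which overlap, and it was not tested. Without the filter its log2 fold change was 1.47 (edgeR adjusted p = 0.429).

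Mitotic genes were lowest in the knockout libraries where Lif and Il11 were highest. The mean log2 level of the 20 mitotic genes, 15 of which fell (20.6% of all rows did), was 0.47, -0.86, -1.63 and -1.97 in knockout replicates 1 to 4 and 0.87 to 1.20 in WT. The part of cell division in the level of either gene was not tested.

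**Figure D3:**
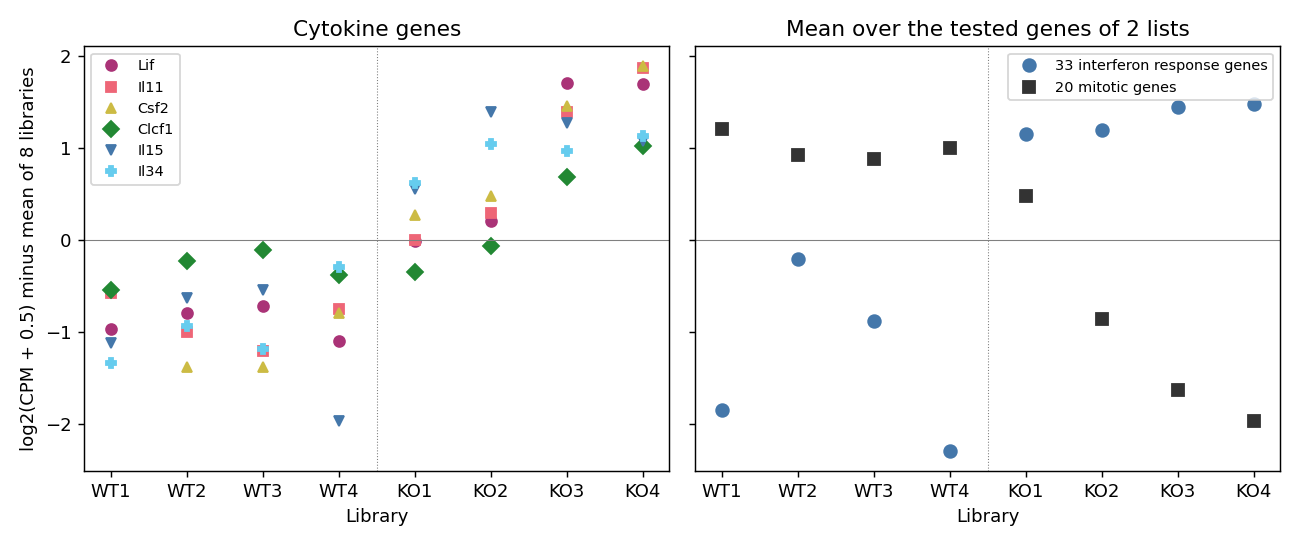
Left, log2(CPM + 0.5) of 6 cytokine genes in each library minus the mean of the 8 libraries; right, the same quantity averaged over 33 interferon response genes and over 20 mitotic genes. Lif, Il11, Csf2 and Clcf1 are highest in knockout replicates 3 and 4, where the mitotic genes are lowest, and Il15 is lowest in WT replicate 4.

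The promoters of Lif and Il11 are shown because these genes were high in the same libraries, with that of Il6, the third gp130 ligand, and that of Csf1, which did not pass the test. Each is the 250 bases before a RefSeq transcription start (GRCm38.p6), 5′ to 3′ on the strand of the gene, with motif matches in capitals. The motifs searched on both strands were AP-1 (TGANTCA), NF-kB (GGGA and TTCC with 2 bases between), a TEAD core (GGAATG), an interferon response element (GAAA and GAAA with 2 bases between) and a STAT site (TTCNNNGAA). No match overlapped another in the windows printed.
Lif, chr11:4257318-4257567, plus strand: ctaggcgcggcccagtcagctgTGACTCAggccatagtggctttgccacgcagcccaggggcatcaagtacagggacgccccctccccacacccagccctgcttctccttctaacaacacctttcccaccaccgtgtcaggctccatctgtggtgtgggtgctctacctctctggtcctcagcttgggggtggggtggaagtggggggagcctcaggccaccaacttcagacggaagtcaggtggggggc
Il11, chr7:4778142-4778391, minus strand: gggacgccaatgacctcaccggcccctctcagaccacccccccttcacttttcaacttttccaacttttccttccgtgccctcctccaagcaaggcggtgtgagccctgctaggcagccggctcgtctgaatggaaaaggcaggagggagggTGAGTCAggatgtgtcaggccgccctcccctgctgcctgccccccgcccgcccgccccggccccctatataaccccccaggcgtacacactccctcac
Il6, chr5:30012864-30013113, plus strand: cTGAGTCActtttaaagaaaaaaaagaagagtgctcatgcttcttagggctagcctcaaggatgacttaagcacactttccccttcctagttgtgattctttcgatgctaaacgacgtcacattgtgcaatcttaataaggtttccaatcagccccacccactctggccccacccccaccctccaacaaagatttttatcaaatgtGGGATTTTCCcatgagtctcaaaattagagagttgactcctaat
Csf1, chr3:107760470-107760719, minus strand: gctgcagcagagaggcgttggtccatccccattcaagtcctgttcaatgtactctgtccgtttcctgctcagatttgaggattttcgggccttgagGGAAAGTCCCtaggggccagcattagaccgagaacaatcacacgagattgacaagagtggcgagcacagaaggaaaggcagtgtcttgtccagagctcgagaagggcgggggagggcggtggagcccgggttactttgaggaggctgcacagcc
The capitals mark an AP-1 match that begins 228 bases before the start of Lif and 98 before that of Il11, an AP-1 and an NF-kB match 249 and 44 bases before the start of Il6, and an NF-kB match 154 bases before the start of Csf1. The Il11 window printed belongs to the inner of its 2 listed starts, and the outer one (chr7:4782858-4783107) held none of the 5 motifs. The table held 13 promoters for 8 of the 10 genes. AP-1 letters were in 5 of the 13, those of Lif, Il11 and Il6 and 1 each of Il15ra and Il1rn, and in 6.75% of all 32851 promoters of the same length. NF-kB letters were in 2 of the 13 (1.21% of all), TEAD core letters in 4 (12.6%), all of Il15ra, Il1rn and Il33, and the interferon and STAT letters in none (2.98% and 7.02%). The window of Il18 held no match.

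Receptor chains for these ligands were present in part. Il6st, which encodes gp130, was at 160, 216, 173 and 124 CPM in WT and 191, 274, 322 and 314 CPM in knockout replicates 1 to 4. Knockout replicate 1 lay within the WT range, and the increase passed the test (log2 ratio 0.71 ± 0.22 SE, edgeR adjusted p = 0.0257). That call was lost without WT replicate 1, 3 or 4 or knockout replicate 2, 3 or 4 (adjusted p from 0.0504 to 0.0801) and with the close WT pairs summed (0.0967). Il11ra1, the IL-11 receptor alpha chain, rose from 2.72 ± 0.914 to 10.4 ± 2.11 CPM (log2 ratio 1.93 ± 0.29 SE, edgeR adjusted p = 0.00146). Its knockout values of 9.23, 13.6, 9.54 and 9.23 CPM were all above the highest WT value, 3.75 CPM, and were not highest in replicates 3 and 4 as Il11 was. Il6ra, the IL-6 receptor alpha chain, was at 20.6 ± 2.52 and 29.1 ± 7.40 CPM and did not pass (edgeR adjusted p = 0.0799). Lifr and Cntfr, receptor chains for LIF and related ligands, were at 0 in all libraries, and Osmr had 0 counts in the knockout libraries and 0 to 23 in WT.

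**Figure D4:**
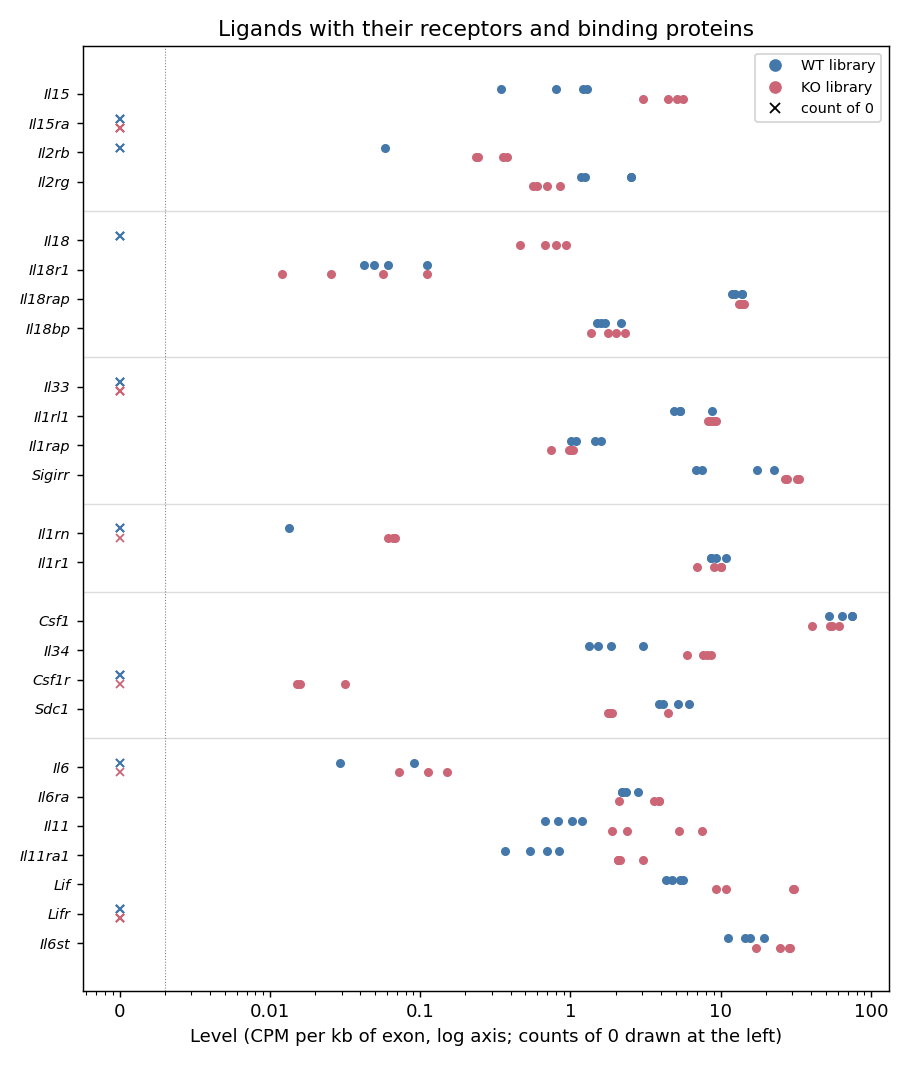
Level of ligands and their receptors or binding proteins in each library (CPM per kb of exon, log axis), grouped by system; crosses at the left are counts of 0. Il15ra, Il33 and Lifr are at 0 in every library, and Csf1 is the highest ligand in both groups.

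Over the whole list of 22 receptor and binding genes, 13 were tested, 4 rose (Il2rb, Sigirr, Il6st, Il11ra1) and 3 fell (Il2rg, Sdc1, Il27ra), with 5 at 0 in all libraries. Il2rb was tested only through its knockout counts. Il27ra reached the filter only with its WT counts, as it had 4 counts in knockout replicate 4. The share called, 7 of 13, stands beside 41.6% of all rows, and the median log2 fold change was 0.10 against 0.02 over all rows. Without knockout replicate 3 or 4, or with the close WT pairs summed, only 3 were called, and without WT replicate 3 or knockout replicate 2 there were 4. Il27ra, a gp130 partner that reads IL-27, fell from 1.63 ± 0.547 to 0.490 ± 0.308 CPM (edgeR adjusted p = 0.0313), a call lost without any of WT replicates 1, 2 and 3 and knockout replicates 3 and 4 (adjusted p from 0.0603 to 0.0906) and with the close WT pairs summed (0.107).

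Below the receptors, 24 of 26 signalling genes were tested, and 7 rose and 2 fell (median log2 fold change 0.11). The 9 of 24 called stand beside 41.6% of all rows. Stat3, the main transcription factor of gp130 signalling, was at 44.6, 41.7, 36.0 and 41.3 CPM in WT and 72.7, 94.4, 94.5 and 91.6 CPM in knockout replicates 1 to 4. The groups were far apart (log2 ratio 1.11 ± 0.14 SE, edgeR adjusted p = 0.000837). Stat2, which acts in interferon signalling, rose by 1.40 on the log2 scale (edgeR adjusted p = 0.00662), and the kinase gene Tyk2 by 1.22 (adjusted p = 0.00414). Stat4 was at 0 in WT and at least 6.81-fold higher, and it was tested only because of its knockout counts. Socs3, a feedback inhibitor of gp130, had a log2 fold change of 0.81 (SE 0.29, edgeR adjusted p = 0.0475), with overlapping groups, and its call was lost when any of 6 libraries was left out, WT replicates 1, 2 and 3 and knockout replicates 2, 3 and 4 (adjusted p from 0.0745 to 0.113) or the close WT pairs were summed (0.0574). The decreases were Irak4 and Map3k7, kinase genes of IL-1 receptor signalling (log2 ratio -0.57 and -0.54, edgeR adjusted p = 0.0236 and 0.0370). Both calls were lost without WT replicate 1 or knockout replicate 2, 3 or 4, that of Map3k7 also without WT replicate 4, and both with the close WT pairs summed and under upper-quartile or plain library-size scaling (adjusted p from 0.0589 to 0.106 in these). That of Map3k7 was lost under either other filter too (0.0547 and 0.0551). Irak2, an IL-1 receptor kinase gene, rose by 0.88 (edgeR adjusted p = 0.00649), and Stat5a and Stat5b, which read IL-15 signals, did not pass (adjusted p = 0.712 and 0.781).

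Among 16 genes for the cutting and release of these factors, 12 were tested, and 3 rose and 1 fell (median log2 fold change 0.09). The 4 of 12 called stand beside 41.6% of all rows. Casp1, whose product cuts the IL-18 precursor, was at 9.86, 11.6, 9.60 and 11.3 CPM in WT and 24.96, 31.7, 20.3 and 18.8 CPM in knockout replicates 1 to 4 (log2 ratio 1.18 ± 0.20 SE, edgeR adjusted p = 0.00221). Every knockout library was above every WT library. Casp4, an inflammatory caspase, rose from 1.19 ± 0.934 to 12.5 ± 3.58 CPM (edgeR adjusted p = 0.00178), and Gsdmd, the pore protein through which IL-1 family factors leave the cell, from 42.1 ± 20.5 to 112 ± 20.6 CPM (edgeR adjusted p = 0.00826). Within WT both were lowest in replicates 1 and 4 (Casp4 0.442 and 0.461 CPM, Gsdmd 24.2 and 25.8 CPM), as the interferon list was. Gsdmd was highest in WT replicate 3 (65.9 CPM) and the interferon list in WT replicate 2. The mitochondrial transcripts were also lowest in replicates 1 and 4 within WT. The part of either in these levels was not tested. Pycard, the inflammasome adaptor, had only 2 to 9 counts per library. Adam17, a sheddase for membrane cytokines and receptors, fell from 74.0 ± 4.33 to 54.9 ± 3.14 CPM (log2 ratio -0.43 ± 0.12 SE, edgeR adjusted p = 0.0185), a call lost with upper-quartile factors (adjusted p = 0.0953), library size only (0.104), no filter (0.0538), the close WT pairs summed (0.0794) and without knockout replicate 2, 3 or 4 (0.0578 to 0.0641).

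The rest of the class was mostly too low to test. Of 40 other interleukin, colony-stimulating factor and related ligand genes, 12 were at 0 in all libraries and 6 were tested. Csf2, which encodes GM-CSF, was at 0.405, 0, 0 and 0.248 CPM in WT and 1.07, 1.31, 3.08 and 4.34 CPM in knockout replicates 1 to 4. It passed the filter only because of its counts in the knockout libraries and so had to differ. It was highest in the libraries where Lif and Il11 were highest. Flt3l, a dendritic cell growth factor, rose from 2.43 ± 1.30 to 7.04 ± 1.57 CPM (log2 ratio 1.53 ± 0.41 SE, edgeR adjusted p = 0.0151). Clcf1, a further gp130 ligand, was at 7.77, 9.53, 16.4 and 20.8 CPM in knockout replicates 1 to 4 and 6.73 to 9.27 CPM in WT, and did not pass (edgeR adjusted p = 0.0686). Kitl and Il7, the most abundant of the remaining genes, did not pass either (adjusted p = 0.0987 and 0.609). Every knockout value of Kitl (80.8 to 85.7 CPM) still lay below every WT value (90.0 to 117 CPM), an order found for 19.6% of all rows tested. Csf3, which encodes G-CSF, had 0 to 10 counts per library.

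Ordered by level per kb of exon in WT, Csf1 (66.5) was followed by Lif (5.00), Il34 (1.93), Il11 (0.927) and Il15 (0.912 CPM per kb), and the last 2 differed by less than their SD. In the knockout libraries the order was Csf1 (52.5), Lif (20.3), Il34 (7.54), Il15 (4.55), Il11 (4.27) and Il18 (0.717 CPM per kb), and Il15 and Il11 again differed by less than their SD. Il6 was at 0.0839 and Il1rn at 0.0488 CPM per kb in the knockout libraries.

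Genes with the most similar profile were sought among about 9568 annotated genes that averaged 5 CPM or more, by the root mean square difference of log2(CPM + 0.5) over the 8 libraries after centring each gene. This measure is set by the group difference as well as by differences within groups, and all genes share the same libraries. Lif was the second nearest gene to Il11 (0.30), after Mndal (0.28), and the distance between Lif and Il11 was the smallest of the 15 pairs among the 6 genes tested. The nearest to Lif were Slc14a1, a urea transporter (0.20), and Traf5, a signalling adaptor (0.20). Il15 was nearest to Castor2 (0.16) and Ctso, a cathepsin (0.18), Il34 to Thbs2, a matrix glycoprotein (0.18), and Ypel5 (0.22), and Csf1 to Cep350 (0.06) and Nsd3 (0.07). For Il18, whose values lie near the added 0.5, the nearest were Mxd1 and Smim14 (0.12 each).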

How the data were processed

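Messenger RNA of 8 CT26 libraries, 4 per group, was prepared for Illumina sequencing with a Yeasen mRNA kit, per the labels' protocols. The submitters' processing notes name HISAT2, StringTie and GRCm38, with no version. How reads were counted, whether by strand, and what was done with shared reads: not given in the sources used here. Deposited by the authors were raw counts, whole numbers per gene in 2 tables with identical values (26642 rows, of which 4606 are unannotated loci). In each library a count of 1 is rarer than a count of 2, so counts may come in pairs. Limits and intervals from counts treat each count as independent and cover no other error. If counts come in pairs, they are too narrow. No pair of replicates agreed within sampling noise (chi-square per degree of freedom of 34.7 or more). WT replicates 1 and 4 (34.7) and 2 and 3 (35.0) were closest, and if these share a culture, WT holds fewer than 4 independent units.

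Counts were filtered with filterByExpr (minimum count 10, minimum total 15), TMM-scaled and tested with edgeR 4.0.16 in R 4.3.3 (glmQLFit and glmQLFTest, two-sided, no covariates), with Benjamini-Hochberg adjustment over all rows tested and a threshold of 0.05. The SE is the size of the log2 fold change divided by the square root of F. The test was also run on simulated counts of independent libraries, which cannot show how it performs if replicates or counts are paired. Lists counted were receptors, signalling, release, other cytokines, interferon response, mitosis, mitochondrial transcripts (0 of 13 called) and markers of leukocytes, endothelium, fibroblasts and colon epithelium. The 10 genes and all lists were chosen with earlier results of these data known. All 10 are named, up to 6 called genes per list by smallest p, any receptor or binding partner, Tead1 and Tead4, and the 2 genes nearest in profile; 1 gene that this rule names is not reported here. Other names (Kitl, Il7, Clcf1, Csf3, Il1a, Il1b, Pycard, Socs3, Irak4, Map3k7, Stat5a, Stat5b and the markers) were chosen after their values were seen. Exonic lengths and coordinates are from GENCODE M21 and promoters from RefSeq. Alternatives were DESeq2 1.42.0 size factors and Wald test, upper-quartile factors, library size only, no filter, at least 5 CPM in 4 libraries, limma 3.58.1 (voom), a replicate block, a threshold of 0.01, glmTreat with a log2 fold change of 0.5, each library left out, and the 2 close WT pairs summed.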

Additional observations from a re-analysis of the deposited data

Results flagged for a closer look

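Among 15 sets of 4 libraries, a single library stood far from the other 3 in 2 of them, both for Il1rn, and about 1 set in 20 is expected to be marked by chance. WT replicate 1 was the highest WT library at 0.0736 CPM, from 2 counts, with the other 3 at 0. A set of this form is always marked, so the rate of 1 in 20 does not apply to it. Knockout replicate 1 was the lowest knockout library at 0 CPM, and the nearest other value was 0.336 CPM. That library had counts in 14345 rows of the whole table, against 17759 to 17948 in knockout replicates 2 to 4.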

How the results depend on the processing

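Il15, Il34 and Lif kept their direction and call under all 19 alternatives, and Il11 under the 18 in which it was tested, with adjusted p of 0.0426 or less. Il18, at 0 in WT, was tested through its knockout counts alone, so its calls say nothing of stability. Csf1 stayed below 0 and uncalled under all 19 (log2 fold change -0.45 to -0.14). Same-numbered libraries did not deviate alike (deviations correlated between -0.04 and 0.0002, and not every library correlated best with its own number). Over all pairs of a WT and a knockout library the correlations lay between -0.09 and 0.08. Values this small cannot exclude a culture or batch shared by number. The fit with the replicate block called 4683 rows and as many of the 10 genes, 5. It ended the calls of Adam17 and Map3k7 (adjusted p = 0.0642 and 0.0532) and no other among the genes compared across settings. Of the 10 genes, 3 were called with at least 5 CPM required in 4 libraries, where Il18 and Il11 are not tested, and 5 to 6 with 1 library left out (the sixth is Il1rn, which then passes the filter through knockout counts alone). All rows called numbered 5513, against 2736 at an adjusted p under 0.01, 2603 against a log2 fold change of 0.5, 3134 with the WT pairs summed and 3809 to 6829 with 1 library left out. Receptor genes called fell from 7 to 3 at the stricter p, against a log2 fold change of 0.5 and with the WT pairs summed, and were 3 to 8 with 1 library left out. Signalling genes called were 5 against a log2 fold change of 0.5 (9 in the report). Other cytokine genes called were 1 with the stricter filter, 0 at the stricter p and 1 with the WT pairs summed (2 in the report). For counts that fell with fewer rows or libraries the cause was not tested. Of all calls 50.4% were higher, and this share was 64.6% under upper-quartile and 63.5% under plain library-size scaling, where the overall median log2 fold change was 0.20 in place of 0.02. No result changed direction. Genes under about 0.1 CPM are at the depth limit.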
